A study of Mus musculus with 8 samples.

Results

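HL1 is a mouse cardiac muscle line of the AT-1 atrial tumour lineage, and its nuclei were separated with a urea and detergent buffer into a chromatin pellet and a soluble nucleoplasm. The loci described here are 917 assembled transcription units that lie antisense to protein-coding genes. Like every locus that StringTie merged from the libraries and the guide annotation, they carry MSTRG names. They were chosen from the 20637 assembled loci of the short-read gene table by position. A locus had to be autosomal, to share no base with a GENCODE M21 gene on its own strand and to overlap a protein-coding gene, called the host, on the other strand. Its 5′ end had to lie more than 2000 bp from the host's 5′ end and not within 5000 bp past a coding gene on its own strand. Of 1129 loci that met these conditions, 212 held no read in any of the 6 short-read libraries and 917 held at least 1. RNA was measured in 3 chromatin and 3 nucleoplasm libraries of untreated cells by stranded short-read sequencing after removal of ribosomal RNA. By the study's account these libraries of both fractions came from 3 independent cultures. In 2 further chromatin libraries RNA was measured by nanopore sequencing of cDNA. The library preparation of the long reads did not keep the strand. All of it comes from 1 cell line, so the p-values measure the spread between cultures of that line. No cell was treated or altered, and equal amounts of RNA (100 ng) went into the short-read libraries, so a value is a share of the RNA of its fraction.

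Both strands of a gene can be transcribed, and RNA from the strand opposite a coding gene is called antisense RNA. Much of it is non-coding, spliced poorly or not at all, and turned over in the nucleus, so that it is often found with chromatin while spliced messenger RNA moves into the nucleoplasm and on to the cytoplasm. An antisense transcript that covers exons of its host can pair with the mature messenger RNA, whereas one confined to an intron is complementary to the unspliced precursor alone.

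By this distinction, drawn on the whole span of each locus, 366 loci were exonic and 551 were intronic. An exonic locus shared at least 1 bp with an exon of an overlapped opposite-strand coding gene. The exonic loci had a median span of 10002 bp, introns included, and a median of 5.06% of that span lay in host exons. Coding sequence was covered by 280 of them. The intronic loci had a median span of 2222 bp, and 180 of the 551 spanned at most 500 bp against 13 of the 366 exonic ones. The 917 loci had 774 hosts, of which 116 held more than 1 locus, so neighbouring loci are not independent. Most loci (808) lay inside the host, 51 covered its 3′ end, 52 its 5′ end and 6 all of it.

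Coding exons of the host that fall wholly or in part within the span of a locus are shown for loci named below, in the locus's direction. Each run is the reverse complement of the host's coding sequence in GENCODE M21 (mm10). The exons of the loci themselves are not known here, so whether their RNA keeps these bases was not tested. In the first, capitals mark the complement of the start codon of Csrp3 (chr7:48839421-48839532, plus strand, the first of 5 coding exons). In the second, capitals mark the 5 bases that lie inside the locus, whose 5′ end falls in the 7th of 14 coding exons of Nr2c2 (chr6:92157406-92157499, minus strand). The other 3 exons lie wholly inside their locus and are in capitals throughout. They are the 6th of 9 coding exons of Atpaf1 (chr4:115796755-115796802, minus strand), the first of 25 of 4930563M21Rik (chr9:56010472-56010550, plus strand) and the 98th of 155 of Neb (chr2:52206066-52206263, plus strand).
Csrp3: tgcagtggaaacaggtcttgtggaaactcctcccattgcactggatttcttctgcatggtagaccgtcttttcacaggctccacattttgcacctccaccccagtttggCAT
Nr2c2: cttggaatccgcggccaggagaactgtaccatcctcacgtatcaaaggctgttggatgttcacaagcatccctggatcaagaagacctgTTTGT
Atpaf1: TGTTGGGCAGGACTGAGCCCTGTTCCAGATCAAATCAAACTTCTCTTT
4930563M21Rik: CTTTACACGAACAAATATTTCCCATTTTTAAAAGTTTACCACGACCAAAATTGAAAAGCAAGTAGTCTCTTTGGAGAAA
Neb: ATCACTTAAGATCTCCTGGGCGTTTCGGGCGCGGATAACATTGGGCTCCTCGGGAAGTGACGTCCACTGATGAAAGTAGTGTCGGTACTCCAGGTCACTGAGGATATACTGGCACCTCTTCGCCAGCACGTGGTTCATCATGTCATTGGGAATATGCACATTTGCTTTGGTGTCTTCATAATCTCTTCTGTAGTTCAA

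Where RefSeq has a gene start beside the 5′ end of a locus, the surrounding sequence can be shown as well. Among the 888 loci on chromosomes with a start table, 135 had their 5′ end within 100 bp of a RefSeq start on the same strand and 51 exactly at one. The assembly was guided by an annotation, so a bound that matches RefSeq may be copied from that guide. Whether the reads alone would place it there was not tested. The start windows of 4 of them follow, 250 bases before the start in lower case and 50 bases after it in capitals, from RefSeq (GRCm38.p6). They belong to Gm33610 against Fam78b (chr1:167105036-167105335, minus strand), Gm34076 against Apba1 (chr19:23917508-23917807, minus strand), 4930445K14Rik against Pcif1 (chr2:164883402-164883701, minus strand) and Gm46093 against Kansl1l (chr1:66737963-66738262, plus strand). The first is shown because its locus is named below, and the others because their loci were among the most abundant of the 135 loci. The first locus fell in chromatin and the others rose. Some other eligible windows are not shown. All 4 were picked with these values known.
Gm33610: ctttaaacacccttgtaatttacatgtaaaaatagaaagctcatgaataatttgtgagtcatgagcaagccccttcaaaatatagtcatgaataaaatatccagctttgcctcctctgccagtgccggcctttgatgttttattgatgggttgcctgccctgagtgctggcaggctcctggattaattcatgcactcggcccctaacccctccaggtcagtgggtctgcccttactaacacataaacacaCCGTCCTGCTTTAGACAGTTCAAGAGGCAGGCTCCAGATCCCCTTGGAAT
Gm34076: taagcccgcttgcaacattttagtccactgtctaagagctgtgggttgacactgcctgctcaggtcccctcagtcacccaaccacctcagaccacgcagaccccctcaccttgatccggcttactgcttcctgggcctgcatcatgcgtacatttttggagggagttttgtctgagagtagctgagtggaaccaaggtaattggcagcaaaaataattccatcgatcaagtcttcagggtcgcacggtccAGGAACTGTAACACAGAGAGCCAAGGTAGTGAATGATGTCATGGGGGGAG
4930445K14Rik: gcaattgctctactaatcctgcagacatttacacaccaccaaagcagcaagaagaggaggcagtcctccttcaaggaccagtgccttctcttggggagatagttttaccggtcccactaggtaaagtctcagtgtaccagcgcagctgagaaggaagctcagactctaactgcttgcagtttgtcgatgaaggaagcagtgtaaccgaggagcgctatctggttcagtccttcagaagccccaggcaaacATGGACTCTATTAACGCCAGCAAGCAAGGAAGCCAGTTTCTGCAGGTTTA
Gm46093: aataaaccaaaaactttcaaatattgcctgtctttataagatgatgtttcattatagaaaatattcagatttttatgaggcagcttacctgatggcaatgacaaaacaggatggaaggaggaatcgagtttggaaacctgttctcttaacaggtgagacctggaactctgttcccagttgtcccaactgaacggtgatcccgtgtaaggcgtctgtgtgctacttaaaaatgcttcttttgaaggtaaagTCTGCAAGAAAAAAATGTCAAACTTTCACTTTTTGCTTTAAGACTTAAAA

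The 135 start windows had a median GC content of 51.3%, against 52.7% over all 32851 windows of the table and 48.3% over the 11588 of RefSeq lncRNA genes. More than 10 CpG dinucleotides were present in 24.4% of the 135, in 41.4% of all windows and in 16.9% of lncRNA windows. The TATA element TATAAA, searched on both strands, was present in 11.9% of the 135, 13.6% of all windows and 15.5% of lncRNA windows. In the same order, the GATA-factor sequence AGATAA was present in 8.15%, 11.2% and 14.0%, and the GC box CCGCCC in 14.8%, 35.7% and 16.3%. Among the 4 windows shown, only that of Gm46093 held any of the 3, a single TATAAA. The loci are unannotated with respect to GENCODE M21 alone. RefSeq places a gene on the same strand at 380 of the 917, of which 365 are lncRNA genes, and at 313 the shared part is at least 0.5 of the joint span. Of these 380, 167 were higher and 2 lower in the test described below, and of the 537 without a RefSeq gene 228 were higher and 72 lower. The 135 loci at a RefSeq start were 51 higher and 2 lower, with a median log2 fold change of 1.13.

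The 6 short-read libraries held 91657034 to 121773350 reads over all rows of the table. Their values are read counts per locus divided by 1 size factor per library, and are called normalized counts below. Malat1 and Pvt1, non-coding RNAs known for staying with chromatin, were higher in chromatin by 3.82 and 3.94 on the log2 scale, and Gapdh and B2m, both messenger RNAs, were lower by 2.06 and 2.66. All 12 cardiomyocyte markers examined were above 10 normalized counts on average, including Myh6, Tnnt2 and Gata4. The lowest were Nppa, at 10.4 to 113 in the 6 libraries, and Sln, at 18.7 to 376. Replicate 3 stood apart in both fractions, with summed cardiomyocyte markers of 200459 in chromatin against 344680 and 356957, and of 142220 in nucleoplasm against 275766 and 290569. In bulk RNA, fewer cells of a type and less RNA per cell cannot be told apart. Of the other lists, the fibroblast markers summed to 101764 to 117258 in chromatin and 212681 to 347926 in nucleoplasm, with Col1a1 making up nearly all of it and Lum at or near 0. Endothelial markers summed to 1078 to 3023 with Cdh5 at 0, smooth muscle markers to 18614 to 52802, and immune markers to 46.5 to 154.

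Antisense loci, like the rows of the table as a whole, were found more often in chromatin. Reads were present at 792 to 849 of the 917 loci in the 3 chromatin libraries and at 596 to 679 in the 3 nucleoplasm libraries. In chromatin alone 194 loci (21.2%) were seen and in nucleoplasm alone 15 (1.64%), against 15.0% and 4.68% of all rows with a read. Reads in all 6 libraries were present at 537 loci (58.6%), against 61.5% of all rows. Since a single read in any library was enough for a locus to be counted, 90 loci were seen in 1 library and 18 rest on 1 read. The 194 passed only through chromatin, so the counts below are descriptions of the 917 and not support for a difference.

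Each locus was tested between fractions with limma on log2(normalized count + 1) over all 35830 rows of the table with a read. Benjamini-Hochberg adjustment was over those rows, and libraries were not paired by replicate number in this test. Past an adjusted p of 0.05, 395 of the 917 loci (43.1%) were higher in chromatin and 74 (8.07%) were lower, against 26.9% and 20.9% of all rows tested. More than 4 fold higher with a span over 200 bp were 273 loci (29.8%) against 15.4% of all rows, and 14 were more than 4 fold lower against 4.87%. These are the study's thresholds for chromatin-enriched RNA, but the study applied them to DESeq2 results. DESeq2 on recovered reads gave 230 loci over 4 fold higher, with no share of all rows counted. The median log2 fold change was 1.22 for the loci and 0.38 for all rows. With rows that were at 0 in 1 fraction set to the bound that 3 counts over the group allow, these medians were 1.23 and 0.20. At 467 loci (50.9%) every chromatin value lay above every nucleoplasm value and at 92 (10.0%) below, against 31.5% and 23.8% of all rows. Among the 537 loci with reads in all 6 libraries, 250 (46.6%) were higher and 74 (13.8%) lower.

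These splits depend on scaling. Relative to the deposited size factors, scaling to ERCC spike-ins moved the median of all rows by 0.45 and quantile normalization by -0.37 on the log2 scale. With ERCC scaling 474 loci were higher and 25 lower, against 34.8% and 8.68% of all rows. With quantile normalization 261 were higher and 91 lower, against 20.2% and 22.8%. Relative to the median of all rows the loci stayed higher, by 0.85 with the size factors, 0.92 with ERCC scaling and 0.52 with quantile normalization.

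Exonic loci leaned further to chromatin than intronic ones. Of the exonic loci 179 (48.9%) were higher and 10 (2.73%) lower, the latter 6 without chromatin replicate 1 or nucleoplasm replicate 2, and of the intronic loci 216 (39.2%) were higher and 64 (11.6%) lower. Their median log2 fold changes were 1.57 and 1.07, or 1.59 and 1.03 with the bound for rows at 0. More than 4 fold higher were 139 exonic (38.0%) and 134 intronic loci (24.3%). The summed normalized counts of the exonic loci were 200654, 182268 and 220973 in chromatin and 38927, 38334 and 44031 in nucleoplasm. The intronic sums were 718217, 718786 and 912249 in chromatin and 439188, 1368030 and 765453 in nucleoplasm, and so overlapped between fractions. The 4 most abundant intronic loci, picked by these same counts, held most of the sum in every library. Without them the sums were 115670 to 133544 and 79613 to 86573, which do not overlap. In nucleoplasm replicate 1 the 3 intronic loci of highest count per kb, described below, held 1187, 155 and 239. Most of the intronic sum there thus lay in loci not named here. With ERCC scaling the exonic loci were 217 higher and 2 lower and the intronic ones 257 and 23, and with quantile normalization 118 and 16, and 143 and 75.

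The contrast between the classes went along with span. Among loci of at most 500 bp, 51 of 180 intronic loci (28.3%) were higher and 40 (22.2%) lower, and 2 of 13 exonic loci were higher and 4 lower. Among loci of over 500 to 2000 bp, 31 of 89 intronic loci were higher and 20 lower, against 6 and 2 of 23 exonic loci. Among loci of over 2000 to 10000 bp, 85 of 195 intronic (43.6%) and 65 of 147 exonic loci (44.2%) were higher, with 4 and 2 lower. Above 10000 bp, 49 of 87 intronic (56.3%) and 106 of 183 exonic loci (57.9%) were higher, with 0 and 2 lower. The median log2 fold change rose over these 4 span classes from 0.56 to 0.78, 1.32 and 1.81 for intronic and from 0.22 to 0.53, 1.33 and 1.90 for exonic loci. Exonic and intronic loci of like span thus had medians close to each other above 2000 bp. The difference between exonic and intronic loci was not tested, because loci are not replicates.

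**Figure D1:**
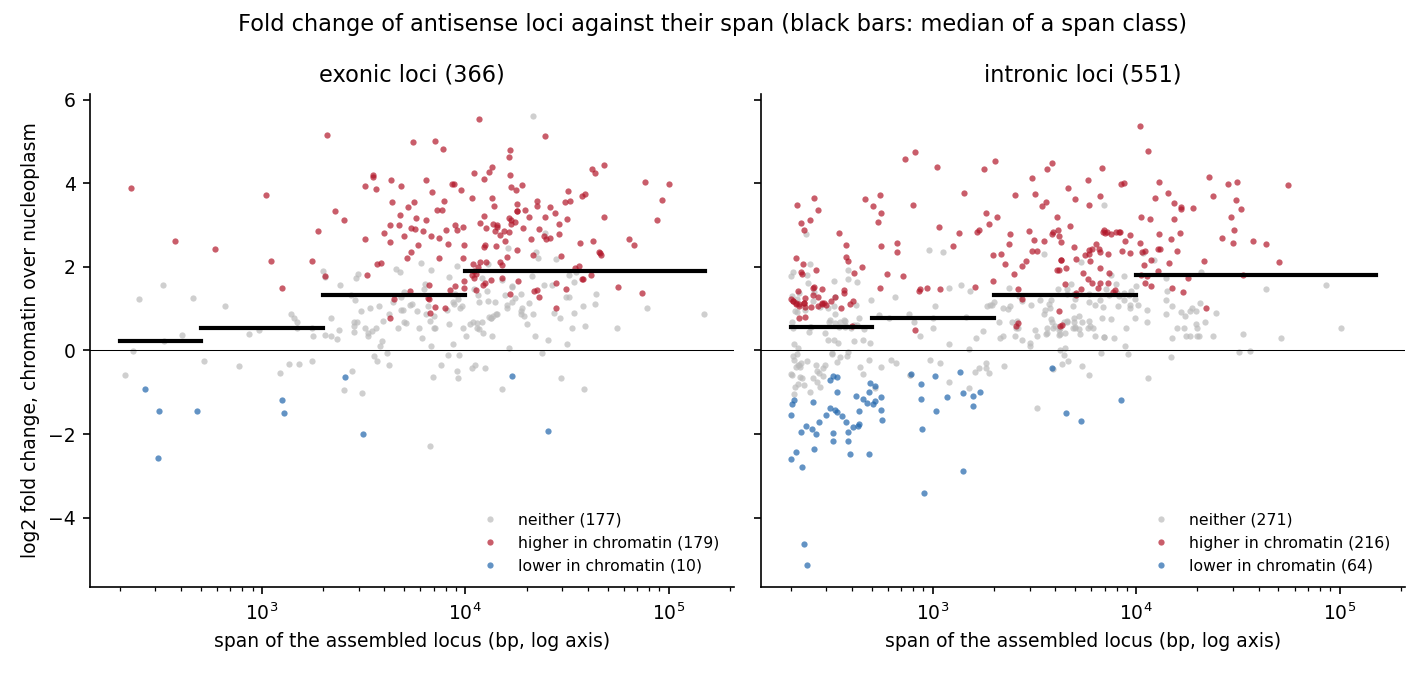
Log2 fold change (chromatin over nucleoplasm, y axis) of each antisense locus against its span in bp (log x axis), for 366 exonic loci on the left and 551 intronic loci on the right. Points are loci, red where higher and blue where lower in chromatin at an adjusted p of 0.05, and black bars are medians of 4 span classes, which climb from 0.22 to 1.90 and from 0.56 to 1.81. Of the 74 blue points 44 span at most 500 bp.

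**Figure D2:**
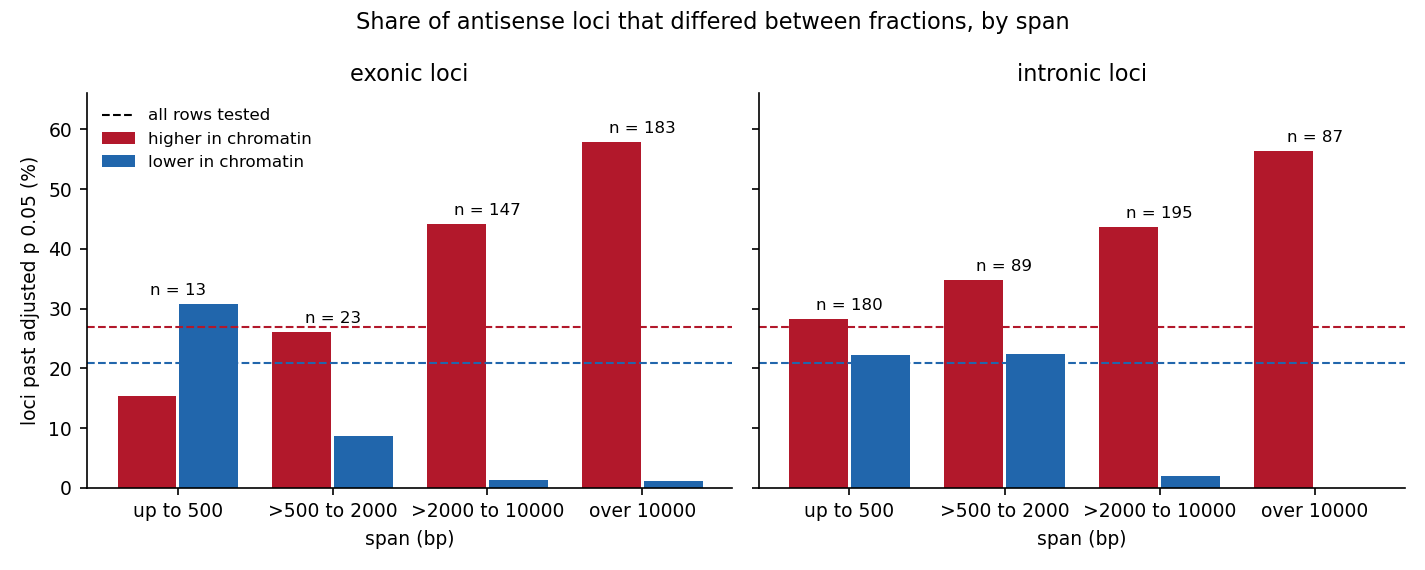
Percent of antisense loci higher (red) or lower (blue) in chromatin at an adjusted p of 0.05, in 4 classes of span, for exonic loci on the left and intronic loci on the right, with the number of loci above the bars. Dashed lines give the shares among all rows tested, 26.9% higher and 20.9% lower. The blue bars of the intronic loci go from 22.2% in the shortest class to 0 in the longest.

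The classes also parted with abundance. Of the 60 exonic loci with a mean of at least 100 normalized counts, 46 (76.7%) were higher and 4 lower, with a median log2 fold change of 2.57. Of the 160 intronic loci at that level, 68 (42.5%) were higher and 50 (31.2%) lower, with a median of 0.53 and a median span of 559 bp. Among loci with a mean under 10, 58 of 184 exonic and 57 of 197 intronic loci were higher and 1 exonic locus was lower. Coding bases of the host were part of 280 exonic loci, of which 151 (53.9%) were higher and 2 lower. Their median log2 fold change was 1.78 and their median span 11985 bp. The 86 exonic loci that met untranslated or non-coding exons alone were 28 higher and 8 lower, with a median of 1.04 and a shorter median span of 5598 bp. The part of span in this difference was not tested. The 19 loci with at least 0.5 of their span in host exons were 3 higher and 3 lower, with a median span of 519 bp.

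Sarcomere genes, a list of 30, hosted 4 loci in 3 genes, of which 2 were higher. The more abundant was at Neb, which encodes nebulin, the giant protein along the thin filament. The locus (MSTRG.10267, chr2:52130332-52206471, plus strand) spans 76140 bp, covers the 3′ end of Neb and contains 9398 bp of its exons, 6621 of them coding. Its normalized counts were 19276, 16970 and 16507 in chromatin and 1058, 947 and 1218 in nucleoplasm, so that the fractions lay far apart in every library. The log2 fold change was 4.04 ± 0.12 (SE, n = 3 per fraction, limma adjusted p = 2.28e-05). The sense rows of Neb held 5423, 4958 and 12260 in chromatin and 3281, 2933 and 10678 in nucleoplasm, a log2 fold change of 0.56. Here and below, counts per kb divide antisense reads by the span of the locus and sense reads by the whole annotated gene, introns included. Per kb of span the antisense locus averaged 231 normalized counts in chromatin against 31.2 for the sense rows, and 14.1 against 23.3 in nucleoplasm. By these means the order of the 2 strands was opposite in the fractions, but in nucleoplasm this rested on replicate 3, with its sense value of 10678. In nucleoplasm replicates 1 and 2 the antisense locus was slightly above the sense rows per kb. A RefSeq lncRNA gene, Gm52510, starts within the locus and shares 0.0781 of the joint span.

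The other sarcomere host with a rise was Csrp3, which encodes muscle LIM protein of the Z-disc. Its antisense locus (MSTRG.16646, chr7:48835038-48848591, plus strand, 13554 bp) covers the 5′ end of the gene and, with it, the start codon shown above. It held 1314, 1295 and 1015 normalized counts in chromatin and 101, 101 and 83.3 in nucleoplasm, a log2 fold change of 3.65 ± 0.15 (limma adjusted p = 2.68e-05). The sense rows of Csrp3 held 499 to 604 in chromatin and 281 to 598 in nucleoplasm and overlapped. Per kb of span the sense RNA was at 30.9 and 27.5 and the antisense RNA at 89.1 and 7.01. The remaining 2 loci lie at Actn2, the Z-disc actinin, and did not pass the test. The intronic one held 13.2, 0 and 8.33 normalized counts in chromatin and none in nucleoplasm, and the exonic one held 44.7, 33.5 and 18.7 against 27.3, 24.0 and 7.25.

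The other heart lists, drawn up with earlier results of these data known, met few loci, all with a mean under 100. Of 19 calcium-handling genes, 7 hosted 1 locus each, of which none was higher and 1 was lower. That locus, intronic in Cacna2d1, a subunit of voltage-gated calcium channels, held 36.6, 39.8 and 34.3 normalized counts in chromatin and 73.8, 104 and 63.8 in nucleoplasm (log2 fold change -1.08, limma adjusted p = 0.016). The locus in Slc8a1, the sodium-calcium exchanger, held 52.9 to 62.9 and 32.3 to 43.1 (0.59, adjusted p = 0.087), while its host's sense RNA was higher in chromatin by 2.85 on the log2 scale. Of 28 cardiac transcription factors, Zfhx3 and Zfpm2 hosted 1 locus each and both were higher. Zfhx3's held 38.6, 35.6 and 15.6 against 4.04, 7.19 and 2.90 (2.41, adjusted p = 0.011), and Zfpm2's held 6.10, 5.24 and 12.5 against 0, 0 and 2.90 (2.42, adjusted p = 0.031). Of 36 chromatin regulator genes 4 hosted a locus, and those in Brd3 and Dnmt3a, an acetyl-lysine reader and a DNA methyltransferase, were higher by 2.07 and 1.74 on the log2 scale. Of 12 intercalated disc genes Tjp1 alone hosted a locus, which changed by 0.26 without passing the test.

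Other exonic rises had hosts of many kinds. Among loci with a mean of at least 100 normalized counts the largest was at Atpaf1, an assembly factor of mitochondrial ATP synthase, where the locus (MSTRG.13100, chr4:115785183-115796802, minus strand) held 229, 236 and 284 normalized counts in chromatin and 8.08, 0 and 15.9 in nucleoplasm. The log2 fold change was 5.54 ± 1.04 (limma adjusted p = 0.0056), and the SE was the largest among the named rises. Without nucleoplasm replicate 2, the library at 0, the fold change was 4.33, and it was 6.72 with a pseudocount of 0.1 and 4.51 with one of 5. The sense RNA of Atpaf1 was itself higher in chromatin, by 1.98 on the log2 scale. Per kb of span it averaged 199 normalized counts there, against 21.5 for the antisense locus. The 5′ end of the antisense locus falls on the exact end of the Atpaf1 exon shown above. No long-read transcript on the strand of the locus lay within it, against 2 on the host's strand. An end that coincides with the end of a host exon was found at 10 of the 917 loci, 6 of them higher and 2 lower.

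At Nr2c2, an orphan nuclear receptor gene, the locus (MSTRG.15636, chr6:92151011-92157410, minus strand) held 603, 559 and 724 against 33.3, 31.2 and 44.9, with no overlap (4.08 ± 0.20, limma adjusted p = 3.54e-05). It has the same bounds as the RefSeq lncRNA gene Gm46967, bounds that the guide annotation may have set. The Nr2c2 sense RNA was itself higher in chromatin, by 2.12 on the log2 scale. At 4930563M21Rik the locus (MSTRG.19026, chr9:56006958-56011262, plus strand) covers the 5′ end of its host and held 1459, 1233 and 1318 against 96.0, 52.7 and 94.9 (4.07 ± 0.26, limma adjusted p = 6.83e-05). Its host was nearly silent, at 16.7 to 24.1 normalized counts in chromatin and 0 in nucleoplasm.

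The largest intronic rises at that level were in Cpa6, Apba1, Nfib and Spef2. In Cpa6, a carboxypeptidase gene, a locus of 817 bp (MSTRG.83, chr1:10359153-10359969, plus strand) held 293, 249 and 182 normalized counts in chromatin and 6.06, 7.19 and 10.9 in nucleoplasm (4.75 ± 0.32, limma adjusted p = 8.88e-05), while its host had 0 to 20.8 in any library. In Nfib, a transcription factor gene, the locus (MSTRG.12882, chr4:82672407-82685281, plus strand) held 2720, 2654 and 1909 against 138, 152 and 148 (4.03 ± 0.16, adjusted p = 2.49e-05). Nfib's sense RNA was much more abundant, at 467201 in chromatin and 96436 in nucleoplasm on average, and its log2 fold change of 2.27 was smaller than that of the antisense RNA.

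Apba1, a neuronal adaptor protein gene, held 2 antisense loci on the same strand. The intronic one (MSTRG.9432, chr19:23919834-23923476, minus strand) held 1048, 1082 and 1007 against 46.5, 52.7 and 52.2, with the smallest SE among the named loci (4.35 ± 0.12, limma adjusted p = 2.28e-05). The exonic one, MSTRG.9431, which starts 11 bp from the start of Gm34076 shown above, had a log2 fold change of 3.22. The sense RNA of Apba1 held 857 to 1291 in chromatin and 1115 to 1584 in nucleoplasm, a log2 fold change of -0.35.

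In Spef2, a sperm flagellar gene with 0 to 33.3 sense normalized counts in any library, 3 loci follow each other on the plus strand of chromosome 15. Besides the intronic locus MSTRG.6211 of 8435 bp, with 1828, 1686 and 1656 against 99.0, 91.1 and 139 (3.98 ± 0.18, limma adjusted p = 2.90e-05), there were exonic loci of 100081 and 37532 bp. These 2 and the loci at Cntn6 were named after their values were seen. The longer held 22952, 20400 and 25572 normalized counts against 1358, 1182 and 1901, the most abundant of all loci that rose. The log2 fold changes of the 3 were 3.98, 3.71 and 3.98. In the same way, the loci of 93089 and 31026 bp antisense to Cntn6, a neural cell adhesion gene, changed by 3.61 and 3.55.

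**Figure D3:**
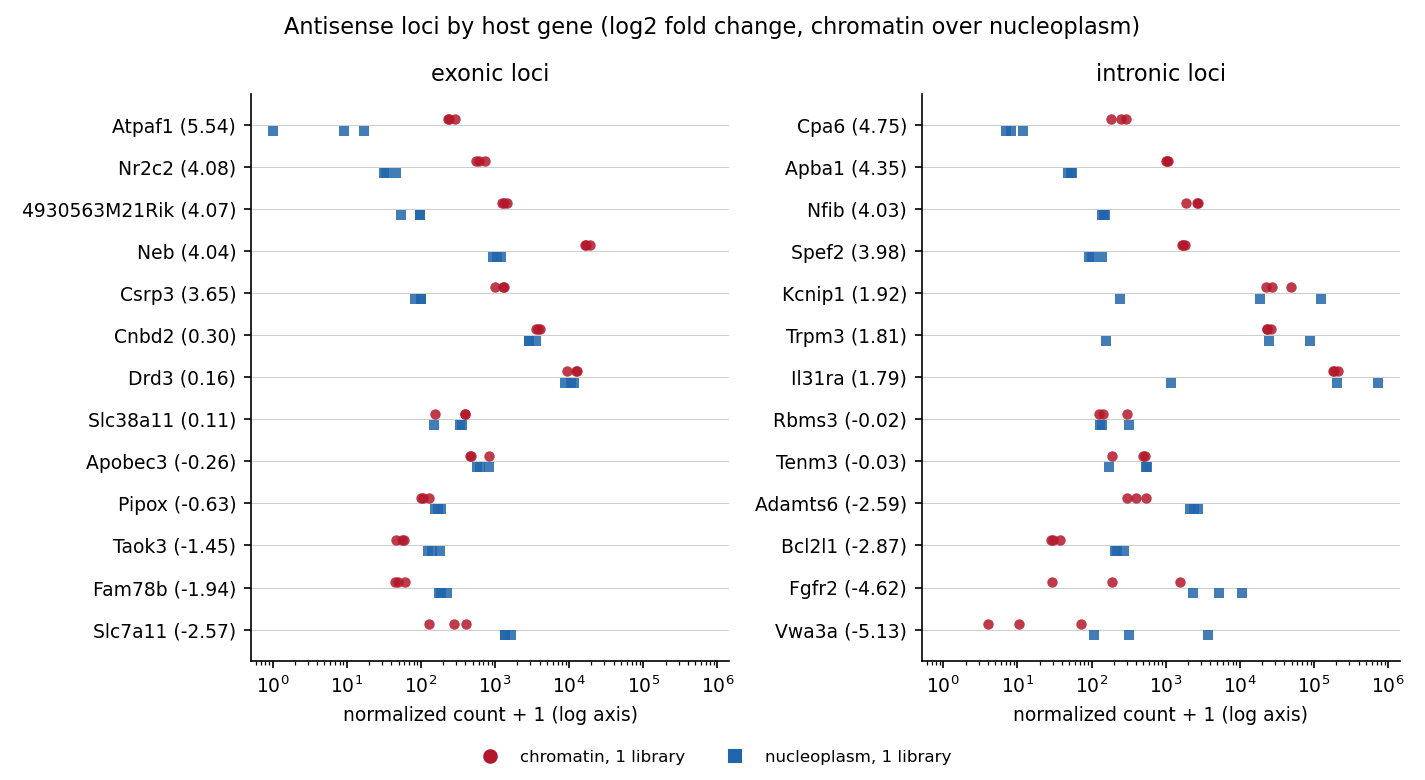
Normalized count + 1 (log x axis) of the 26 antisense loci named by rule, in each of 3 chromatin (red circles) and 3 nucleoplasm libraries (blue squares), labelled by host gene with the log2 fold change in parentheses. Exonic loci are on the left and intronic loci on the right. In the 9 loci at the top with changes above 3.6 the fractions are separate, and in Kcnip1, Trpm3 and Il31ra the nucleoplasm libraries lie on both sides of the chromatin libraries.

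Over the 116 hosts with more than 1 locus, 38 had all of them higher, 2 all lower and 28 none called. In 6 hosts 1 locus was higher and another lower, and in 5 of the 6 a lower one spanned at most 500 bp. Cys1, for example, held a 300-bp intronic locus with 109, 110 and 131 normalized counts in chromatin and 332, 290 and 404 in nucleoplasm (log2 fold change -1.54), and a 21698-bp exonic locus with 1664, 1674 and 1065 against 666, 559 and 402 (1.43). Cys1 was picked after these values were seen.

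The loci that fell were short. Their median span was 433.5 bp, against 6877 bp for those that rose. Of the 74, RefSeq had a gene on the same strand at 2, and 17 lay with at least 0.5 of their span inside a RefSeq pseudogene, whose strand the table used here does not give. Among the 28 loci in such pseudogenes, 17 (60.7%) were lower, 4 higher and 7 neither, and 19 spanned at most 500 bp. Among the 889 other loci 57 (6.41%) were lower. Of the loci of at most 500 bp, 13 of 19 inside a pseudogene were lower, and 31 of 174 elsewhere.

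In Adamts6, a secreted metalloprotease gene, the locus (MSTRG.5312, chr13:104431022-104431222, minus strand, 201 bp) lies in the pseudogene Gm8680. It held 302, 396 and 534 normalized counts in chromatin and 2115, 2408 and 2748 in nucleoplasm (-2.59 ± 0.22, limma adjusted p = 0.00022), while its host's sense RNA changed the other way, by 2.14. Pseudogenes can share reads with the gene they copy, so these values may hold reads of another locus. For 3 of them the symbol repeats that of a gene. The locus in Wdpcp over Pgam1-ps1 held 358, 431 and 305 in chromatin and 1447, 1556 and 1219 in nucleoplasm (-1.95), and Pgam1, a glycolytic mutase, was lower in chromatin by 1.60 on the log2 scale. The locus in Dlgap1 over Stmn1-rs2 held 382, 458 and 198 against 1880, 1975 and 1256 (-2.35), and Stmn1, a tubulin-binding protein gene, changed by -1.93, with replicate 3 lowest in both fractions as at the locus. The locus in Sdccag8 over Hmga2-ps1 changed by -0.90 without passing the test, and Hmga2 changed by 2.04. What share of these reads comes from elsewhere was not tested.

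Outside pseudogenes, the largest fall with a small error was in Bcl2l1, which encodes the survival protein Bcl-xL. Its intronic locus (MSTRG.10977, chr2:152802436-152803840, plus strand, 1405 bp) held 29.5, 27.2 and 36.4 against 221, 207 and 273 (-2.87 ± 0.21, limma adjusted p = 0.00012), with host sense RNA at -0.19. Of the exonic falls, that at Slc7a11, the cystine transporter, was a 307-bp locus (MSTRG.11572, chr3:50370300-50370606, plus strand) wholly within an exon without coding bases. It held 276, 407 and 129 against 1383, 1641 and 1344 (-2.57 ± 0.41, adjusted p = 0.0028). The locus antisense to Fam78b (MSTRG.1036, chr1:167079465-167105085, minus strand) was the one long locus among the named falls, at 25621 bp. It matches the RefSeq lncRNA gene Gm33610 over 0.999 of the joint span, a match that the guide annotation may also have set. The locus held 47.8, 59.7 and 43.7 against 224, 175 and 186 (-1.94 ± 0.20, limma adjusted p = 0.00048). Taok3 and Pipox hosted the other named exonic falls, of -1.45 and -0.63, and with ERCC scaling the first did not pass the test and the second changed sign, to 0.10. The call in Pipox was also lost without chromatin replicate 1 (-0.60) or nucleoplasm replicate 2 (-0.63).

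The intronic falls in Vwa3a and Fgfr2 had larger estimates but rested on scattered values. The locus of 241 bp in Vwa3a (MSTRG.17144) held 3.05, 71.3 and 9.37 in chromatin and 3759, 107 and 324 in nucleoplasm (-5.13 ± 1.60, limma adjusted p = 0.040). The locus of 233 bp in Fgfr2 (MSTRG.17310) starts 2288932 bp from the 5′ end of this host as annotated. It held 28.5, 1558 and 190 against 10682, 2319 and 5285 (-4.62 ± 1.45, limma adjusted p = 0.041). In both, nucleoplasm replicate 1 was highest. With the replicate number as a block the adjusted p was 0.095 and 0.083 in limma. Leaving out any library but nucleoplasm replicate 2 ended the call in Vwa3a, with log2 fold changes of -3.69 to -6.29, and any but chromatin replicate 2 ended it in Fgfr2, with -3.22 to -5.19.

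The 3 intronic loci of highest count per kb of span varied widely between nucleoplasm libraries. They lie in Il31ra (MSTRG.5347, 202 bp), Trpm3 (MSTRG.9418, 242 bp) and Kcnip1 (MSTRG.2575, 381 bp). In Il31ra the counts were 182092, 188514 and 214044 in chromatin and 1187, 735302 and 203611 in nucleoplasm. In Trpm3 they were 22929, 23473 and 26592 against 155, 87199 and 24492, and in Kcnip1 22759, 27209 and 48859 against 239, 123265 and 18783. Each was lowest in nucleoplasm replicate 1 and highest in nucleoplasm replicate 2, and none passed the test (limma adjusted p of 0.54, 0.53 and 0.50). Without nucleoplasm replicate 1 their log2 fold changes turned from 1.79, 1.81 and 1.92 to -0.99, -0.93 and -0.63. The row over the annotated ribosomal RNA gene on chromosome 17 held 2711320 in nucleoplasm replicate 1 and 28857100 in replicate 2, with 6428330 to 10971900 in the other 4 libraries. Whether residual ribosomal RNA has a part in these 3 loci was not tested.

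Several abundant antisense loci did not pass the test. Drd3, a dopamine receptor gene with 15.6 to 26.4 sense normalized counts, had an exonic antisense locus of 31567 bp with 12710, 12347 and 9498 in chromatin and 11551, 10532 and 8772 in nucleoplasm (MSTRG.7290, 0.16 ± 0.16, limma adjusted p = 0.44). The locus at Cnbd2 held 3551 to 4090 and 2849 to 3600 (MSTRG.11055, 0.30 ± 0.12, adjusted p = 0.089), and passed the test without nucleoplasm replicate 3 (0.41). With ERCC scaling the loci at Drd3 and Cnbd2 were both higher in chromatin, by 0.89 and 1.03 (limma adjusted p = 0.0057 and 0.016), and with quantile normalization that at Cnbd2 was higher by 0.39 (adjusted p = 0.037) while that at Drd3 changed by -0.17. The locus at Apobec3, an antiviral deaminase gene, held 455 to 825 in chromatin and 577 to 837 in nucleoplasm. In Rbms3 and Tenm3 the intronic loci changed by -0.02 ± 0.49 and -0.03 ± 0.61. Their values moved with replicate 3 in both fractions, from 126 and 140 to 304 in chromatin and from 127 and 135 to 323 in nucleoplasm in Rbms3, and from 487 and 529 to 187 and from 544 and 557 to 171 in Tenm3. The sense RNA of these hosts was higher in chromatin by 3.21 and 1.79. A pair of further loci on the same strand within Tenm3 were higher, by 1.54 and 1.62, as seen after their values were known, so that loci inside 1 host differed. The locus at Slc38a11, an amino acid transporter gene, followed Tenm3 in being lowest in replicate 3 of both fractions.

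**Figure D4:**
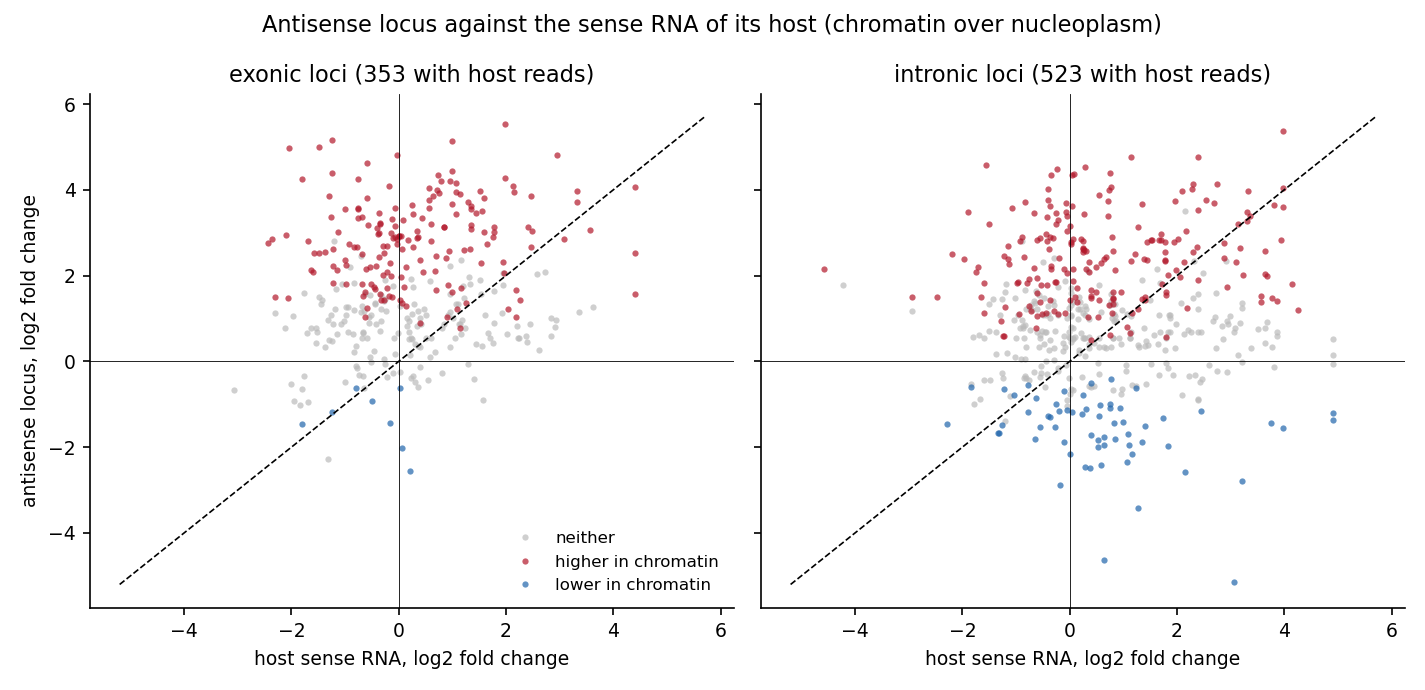
Log2 fold change (chromatin over nucleoplasm) of each antisense locus (y axis) against that of the summed sense rows of its host (x axis), for 353 exonic loci on the left and 523 intronic loci on the right whose host had reads. The dashed line marks equal changes, and 284 exonic and 321 intronic loci lie above it. Red loci were higher and blue loci lower in chromatin at an adjusted p of 0.05, and both spread over hosts that changed in either direction.

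Antisense loci were set beside the sense RNA of their hosts. Host levels were summed over rows on the host's strand with at least 0.5 of their span inside it, and 876 loci had a host with reads. The median log2 fold change of these hosts was 0.25 and that of their antisense loci 1.23, and the locus exceeded its host in 605 (69.1%). The share was 80.5% (284 of 353) for exonic and 61.4% (321 of 523) for intronic loci. Of the loci that rose, 219 had hosts with a log2 fold change above 0 and 156 below, and of those that fell 45 and 26. Per kb of span the antisense locus exceeded its host in chromatin at 85 of 353 exonic loci (24.1%) and 258 of 523 intronic loci (49.3%), and in nucleoplasm at 15.6% and 46.5%. With rows that cover at least 0.5 of the host also counted, 890 loci had a host with reads and 620 (69.7%) exceeded it.

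In the 2 long-read chromatin libraries, 640 of the 917 loci (69.8%) overlapped a transcript above 0 TPM on their own strand and 792 (86.4%) one on the host's strand. For exonic loci the shares were 78.1% and 92.9%, and for intronic loci 64.2% and 82.0%. The loci that rose in chromatin met a same-strand transcript in 296 of 395 cases (74.9%) and those that fell in 36 of 74 (48.6%). The long-read libraries were of chromatin alone, and 1 shared bp was enough for a match. The median span was 6877 bp for the loci that rose and 433.5 bp for those that fell, so these shares are not like for like. Transcripts contained in the locus were present at 465 loci, with more TPM on the antisense strand at 341 and on the host's strand at 124. Transcripts of either strand that run past the bounds of the locus were left out, so these counts do not compare all RNA of the 2 strands. The antisense strand of the Neb locus held 39.9 and 24.7 TPM in contained transcripts, that of Drd3 114 and 56.0, that of Cnbd2 211 and 141 and that of Csrp3 8.90 and 2.70. Since the long reads were not stranded, the strand of a transcript without a splice site is uncertain.

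Other assembled loci were counted in the same fit. Distal intergenic and divergent loci had no annotated gene on their own strand, while the loci on annotated antisense genes overlapped one there. Of 1272 distal intergenic loci 657 (51.7%) were higher and 165 (13.0%) lower, with a median log2 fold change of 1.12 that went from 0.91 at spans of at most 500 bp to 3.16 above 10000 bp. Of 324 divergent loci, which start within 2000 bp of a coding gene's start on the other strand, 90 (27.8%) were higher and 11 lower (median 0.84). Of 666 assembled loci on annotated antisense genes 269 (40.4%) were higher and 36 lower (median 1.16). These groups share libraries and controls with the antisense loci, and differences between them were not tested. At the edge of the rule, the 3 antisense loci with the smallest admitted distance to the host's start (2001, 2103 and 2120 bp) changed by 0.67, 0.26 and -0.95, and the 3 nearest excluded loci (1919, 1911 and 1869 bp) by 0.75, 0.76 and 3.17. At the other distance, the 3 nearest admitted loci (5083, 5220 and 5491 bp past a coding gene) changed by 0.43, 3.03 and 4.20, and the 3 nearest excluded ones (4848, 4833 and 4773 bp) by 0.78, 1.18 and 3.42.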

How the data were processed

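HL1 cells were grown as independent cultures, and nuclear RNA was taken as chromatin or nucleoplasm. The authors aligned 50-bp reads with HISAT2 2.1.0 to mm10, assembled loci with StringTie guided by an annotation, and deposited a signal per gene, that is read counts divided by 1 DESeq2 size factor per library. Every value was a whole multiple of the smallest of its library, taken as 1 read, within a relative tolerance of 1e-06. In nucleoplasm replicate 1 that smallest value was 1.01, too near 1 for an independent check of whole reads. Long-read TPM values were made by the authors with minimap2 and StringTie. The deposited table assigns reads to assembled loci, so bounds, strand and copies depend on the assembly.

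Groups came from the sample titles, since another label reads chromatin for every library. Loci were placed on GENCODE M21, and the members and gene lists were chosen with earlier results of these data known. limma 3.58.1 (R 4.3.3) with an intensity trend was fitted to log2(normalized count + 1) over 35830 rows above 0 in at least 1 library. Adding 1 understates the change of low loci. Loci named are, per class, the 4 largest rises and falls past an adjusted p of 0.05, with a mean of at least 100 and 1 direction in all 3 pairs, the 3 highest per kb, the 2 nearest 0, and heart-list hosts with a mean of at least 100. Replicate numbers in the titles paired the libraries for that rule and for the replicate block, while the main fit did not use the pairing. Same-numbered libraries deviated together (r of 0.12, 0.10 and 0.25 over rows with a mean of at least 10), and differently numbered ones had r of -0.16 to 0.063. Alternatives used edgeR 4.0.16 and DESeq2 1.42.0 on recovered reads, other scalings, filters and position rules. The fit was tested on simulated data. The result of 1 gene list is not reported here. Start windows and RefSeq genes came from GRCm38.p6 tables.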

Additional observations from a re-analysis of the deposited data

How the results depend on the processing

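Under every alternative more of the antisense loci were higher than lower in chromatin, and no locus called in 1 direction was called in the other. Medians below are log2 fold changes of all, exonic and intronic loci in that order. They were 1.80, 2.38 and 1.48 with a pseudocount of 0.1, and 0.70, 0.90 and 0.58 with a pseudocount of 5, where 164, 83 and 81 loci were over 4 fold higher. Among loci with a mean of at least 10, the exonic and intronic medians were 2.21 and 0.96, with 88 intronic loci over 4 fold higher. ERCC scaling gave medians of 1.75, 2.07 and 1.52, with 25, 2 and 23 loci lower. Quantile normalization gave 0.53, 0.82 and 0.39, with 261, 118 and 143 higher, 16 exonic loci lower, and 158, 83 and 75 over 4 fold higher. edgeR gave medians of 1.88, 2.69 and 1.42, and DESeq2, which gave no adjusted p for 170 loci, 1.98, 2.62 and 1.52. Exons of coding transcripts alone left 5 exonic loci lower. Spans over 500 bp, an alternative chosen after seeing the data, left 30, 6 and 24 lower. The share of loci with a same-strand long-read transcript was 54.7% when both libraries had to hold it and 50.2% at a mean TPM of at least 1, and that on the opposite strand 75.8% and 74.0%.

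Leaving out 1 library at a time, 323 to 375 loci were higher and 58 to 74 lower, 6 to 9 exonic loci were lower, and the intronic median ranged from 0.82 to 1.20. With the replicate block 418 loci were higher and 82 lower, and of the named loci only Vwa3a and Fgfr2 lost their call. Among named loci, ERCC scaling turned Pipox to 0.10, Apobec3 to 0.48, Rbms3 to 0.71 and Tenm3 to 0.70, and quantile normalization turned Drd3 to -0.17 and Tenm3 to 0.046. edgeR gave Il31ra -0.77, Trpm3 -0.70 and Kcnip1 -0.60, and DESeq2 -0.69, -0.62 and -0.53. Leaving out 1 library at a time gave Slc38a11 -0.30 to 0.57, Rbms3 -0.41 to 0.41, Il31ra -0.99 to 3.64, Trpm3 -0.93 to 3.64, Kcnip1 -0.63 to 3.87 and Tenm3 -0.59 to 0.44. The causes of these changes were not tested. What could be detected at loci with few reads was not tested.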
